A study of Mus musculus with 8 samples.

Results

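The genes described here are the adult globin genes Hba-a1, Hba-a2, Hbb-b1 and Hbb-b2 and 5 further genes of the red cell lineage, Alas2, Fech, Slc4a1, Epb42 and Ahsp, followed in the hearts of mice with a mutated pseudouridine synthase gene, Pus1. They were taken as every probe whose accession maps to one of the 9 listed genes. Of the 9 genes, 8 had a matched probe, 1 probe each, out of 55681 probes on the array. A probe entered the test when 4 or more of the 8 samples were called well above background, which 28548 probes met, the probes of 7 of these genes among them. Epb42 did not pass this filter, and Ahsp, the gene of a chaperone of free alpha globin, was not analysed here because no probe was matched to it.

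Hearts of 4 mice whose label reads Homozygous Mutant PUS1 were set against hearts of 4 mice labelled Wild Type PUS1, with 2 females and 2 males of each genotype. All were 14 to 16 weeks old and C57BL/6J, backcrossed for 5 generations, and each sample was a frozen portion of heart that held atrium and ventricle. The labels do not say how the Pus1 allele was altered, nor whether blood was washed out of the hearts. RNA was read on 4 2-colour Agilent arrays, each pairing 1 mutant with 1 wild type of the same sex, females on arrays 1 and 2 and males on arrays 3 and 4. Mutants 1 and 3 and wild types 2 and 4 carried Cy5, and mutants 2 and 4 and wild types 1 and 3 carried Cy3.

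Red cells of the mouse lose their nucleus but keep globin RNA for a while as reticulocytes, which makes blood left in a tissue a source of globin RNA. Haemoglobin pairs alpha and beta globin chains, each of which holds a haem group. Alas2 makes the first committed step of haem synthesis in red cell precursors, and Fech, ferrochelatase, puts the iron into the ring in the last step of the pathway. Slc4a1 encodes band 3, the anion exchanger of the red cell membrane, and Epb42 encodes a protein that binds band 3 to the membrane skeleton. Loss of PUS1 in people causes a myopathy with sideroblastic anaemia, in which iron collects in the mitochondria of red cell precursors.

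The array measured Pus1 itself and the heart as labelled. Pus1 had normalized log2 intensities of 7.06, 7.56, 7.24 and 7.13 in mutants 1 to 4, against 9.22, 9.24, 8.92 and 9.02 in wild types 1 to 4. It was thus lower in every mutant than in every wild type, by a log2 ratio of -1.85 (SE 0.13, limma, adjusted p = 1.00). All 12 cardiac myocyte markers were measured, with a mean level of 16.54 to 17.19 in mutants and 16.72 to 17.03 in wild types. Between 44.7% and 54.6% of probes were well above background per sample, and no probe passed the test between genotypes at an adjusted p of 0.05. The labels do not say more about the animals than age, strain, backcross, sex and genotype. The errors given rest on 4 hearts of each genotype, and how far they hold for other mice was not tested. The SDs give the spread between hearts or arrays, and the SEs come from the limma fit with its dye term.

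Since the alpha globin genes and Alas2 varied widely between hearts, the 200 bases before their start sites are shown from the RefSeq promoter table of GRCm38.p6. Hbb-b1 and Hbb-b2 are not in that table, and the beta globin gene Hbb-bt, which C57BL/6 mice carry and which was measured on the array, is shown for the beta chain. Capitals mark, on either strand, the letters GATAA favoured by GATA factors, the letters CACCC favoured by Krüppel-like factors, the letters CCAAT of the nuclear factor Y box, and the letters TATAA of a TATA box.
Hba-a1, chr11:32283472-32283671, plus strand: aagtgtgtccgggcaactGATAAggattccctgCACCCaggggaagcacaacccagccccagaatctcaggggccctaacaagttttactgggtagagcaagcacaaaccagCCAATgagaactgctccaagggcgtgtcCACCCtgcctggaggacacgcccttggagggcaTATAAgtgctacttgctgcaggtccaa
Hba-a2, chr11:32296292-32296491, plus strand: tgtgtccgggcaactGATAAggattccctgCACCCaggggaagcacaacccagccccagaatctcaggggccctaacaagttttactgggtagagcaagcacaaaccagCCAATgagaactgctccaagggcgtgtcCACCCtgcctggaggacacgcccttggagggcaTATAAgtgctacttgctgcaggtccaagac
Hbb-bt, chr7:103813924-103814123, minus strand: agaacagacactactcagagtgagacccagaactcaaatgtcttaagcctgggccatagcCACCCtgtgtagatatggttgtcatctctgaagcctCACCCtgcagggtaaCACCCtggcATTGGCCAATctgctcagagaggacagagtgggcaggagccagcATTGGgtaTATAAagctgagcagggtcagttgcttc
Alas2, chrX:150547217-150547416, plus strand: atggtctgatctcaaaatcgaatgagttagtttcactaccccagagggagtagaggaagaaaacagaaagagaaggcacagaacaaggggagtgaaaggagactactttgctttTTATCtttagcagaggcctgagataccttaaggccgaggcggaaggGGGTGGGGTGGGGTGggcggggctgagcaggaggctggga

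The windows of Hba-a1 and Hba-a2 shared an identical run of 197 of 200 bases. Each held 1 GATAA, 2 CACCC, 1 CCAAT and 1 TATAA. The Hbb-bt window held 3 CACCC, 3 CCAAT and 1 TATAA and no GATAA, and the Alas2 window held 1 GATAA and 3 CACCC with neither CCAAT nor TATAA. No marked base belonged to more than 1 motif. Among 32851 promoter windows of the same length, 18.1% held GATAA, 45.5% CACCC, 29.3% CCAAT and 18.5% TATAA, so that each of these short motifs is common, and a match is a description of the letters only.

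The alpha globin probes reached the limit of the scanner in some hearts. Hba-a1 had normalized log2 intensities of 18.64, 15.66, 17.21 and 17.63 in mutants 1 to 4, against 16.14, 18.54, 17.97 and 17.71 in wild types 1 to 4. The genotypes overlapped, and mutant 2 and wild type 1, both labelled with Cy3, were the lowest hearts. The spots of mutant 1 and wild type 2 were saturated, so their levels are lower bounds. Hba-a2 stood at 18.59, 16.14, 18.29 and 19.00 in mutants 1 to 4, and at 16.59, 18.48, 19.21 and 19.02 in wild types 1 to 4. Its lowest hearts were again mutant 2 and wild type 1, and its spot was saturated in 4 of 8 hearts, the 4 with Cy5, and in none of those with Cy3. The RNAs of the alpha globin genes are close to identical, so the probes of Hba-a1 and Hba-a2 may both read the RNA of either gene. Levels of whole hearts cannot tell more red cells from more RNA per red cell.

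The probes named Hbb-b1 and Hbb-b2 were not saturated and separated 2 hearts from the rest. Hbb-b1 reached 16.53 in mutant 1 and 13.30, 13.18 and 13.35 in mutants 2 to 4, against 13.84, 16.80, 13.44 and 13.58 in wild types 1 to 4. Mutant 1 and wild type 2 lay above the other 6 hearts, with a gap of 2.70 on the log2 scale out of a whole range of 3.62. Hbb-b2 showed 17.84, 15.57, 14.53 and 15.18 in mutants 1 to 4, and 15.38, 17.93, 15.40 and 15.18 in wild types 1 to 4. The same hearts, 1 of each genotype, were again apart, by 2.27 of a range of 3.41. The beta globin probe of Hbb-bt, which is not among the 9 genes, had 18.64, 16.29, 16.58 and 17.39 in mutants 1 to 4, against 16.15, 18.47, 17.57 and 17.31 in wild types 1 to 4. Its 2 highest spots, mutant 1 and wild type 2, were saturated, and its other hearts were spread between 16.15 and 17.57. C57BL/6 mice carry Hbb-bs and Hbb-bt in place of the Hbb-b1 and Hbb-b2 of other strains, and these genes are alike in sequence, so which beta globin RNA the probes named Hbb-b1 and Hbb-b2 bound in these animals was not tested.

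**Figure D1:**
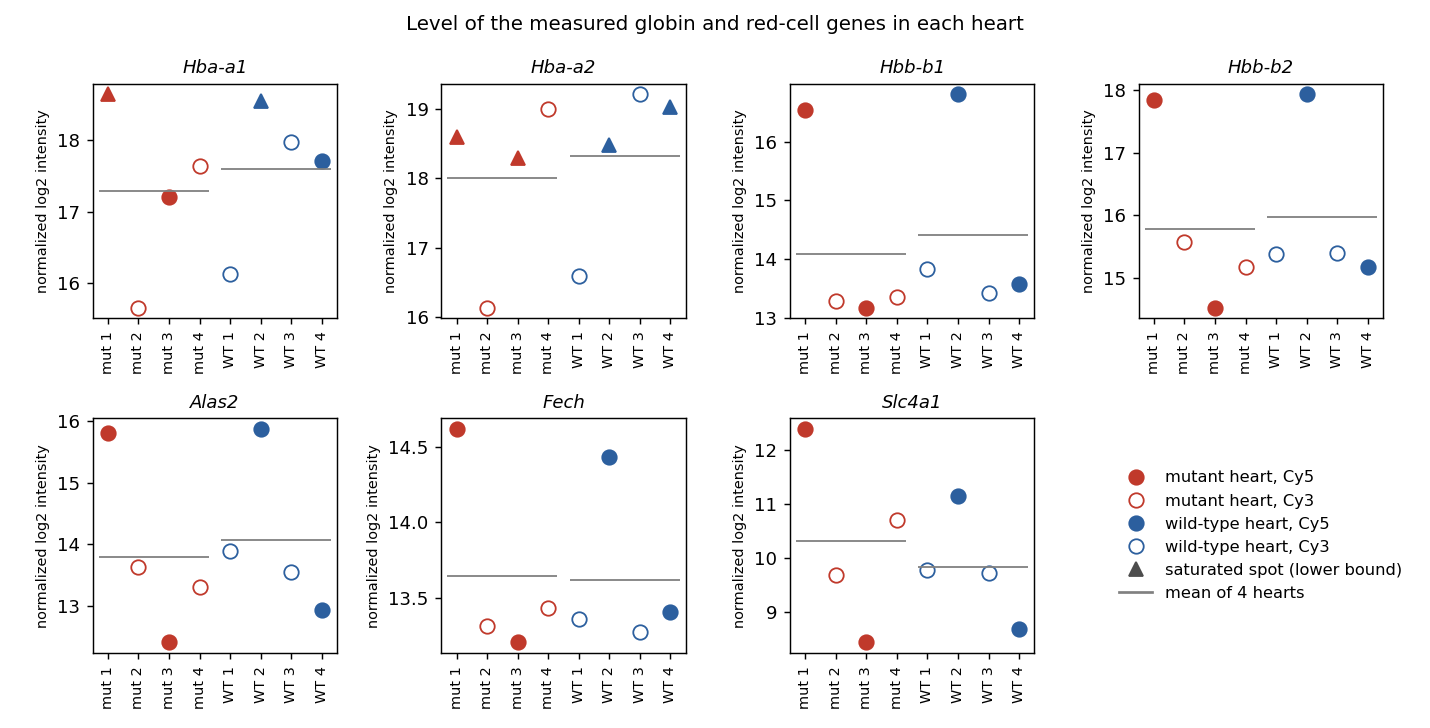
Normalized log2 intensity (y axis) of the 7 measured genes in each of the 8 hearts, mutants left of wild types, with filled symbols for Cy5, open symbols for Cy3, triangles for saturated spots and a line at the mean of each genotype. Mutant 1 and wild type 2 were the highest hearts for Hbb-b1, Hbb-b2, Alas2, Slc4a1 and Fech, and mutant 2 and wild type 1 were the lowest for Hba-a1 and Hba-a2.

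Both haem enzymes set the same hearts apart. Alas2 had 15.81, 13.63, 12.40 and 13.30 in mutants 1 to 4, against 13.89, 15.87, 13.55 and 12.92 in wild types 1 to 4. Mutant 1 and wild type 2 were separated from the other hearts by 1.92 of a range of 3.48, and mutant 3 was the lowest. Fech stood at 14.62, 13.31, 13.20 and 13.43 in mutants 1 to 4, and at 13.36, 14.43, 13.27 and 13.40 in wild types 1 to 4. Outside mutant 1 and wild type 2 its levels lay close together, and the gap to those hearts, 1.00, made up most of its range of 1.41. Fech is used in every cell that makes haem, heart muscle included, whereas Alas2 is the form of the red cell lineage.

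Of the membrane genes, Slc4a1 was measured in every heart and Epb42 in 1. Slc4a1 had 12.39, 9.69, 8.44 and 10.72 in mutants 1 to 4, against 9.78, 11.15, 9.72 and 8.70 in wild types 1 to 4. Its largest gap, 1.24 of a range of 3.95, left mutant 1 alone at the top, with wild type 2 and mutant 4 next. Epb42 had 7.60, 6.62, 6.39 and 6.67 in mutants 1 to 4, against 6.83, 6.85, 6.40 and 6.24 in wild types 1 to 4. Its spot was well above background in 1 of 4 mutants, mutant 1, and in 0 of 4 wild types. No fold between genotypes is given for it, since 3 of the 4 mutants were not well above background, and Epb42 was not tested.

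Between genotypes none of the 7 tested genes passed. At an adjusted p of 0.05 (limma, Benjamini-Hochberg) 0 of 7 passed against 0.00% of all 28548 probes, and at an unadjusted p of 0.05 it was 0 of 7 against 0.991%. The adjusted test passed no probe at all, not even Pus1 at a log2 ratio of -1.85. Its count therefore cannot tell whether the 7 genes differed. The 4 mutants lay all above or all below the 4 wild types for 0 of 7 genes, against 0.739% of all probes, and the ratio had the same sign on all 4 arrays for 0 of 7, against 4.76%. Hbb-b1 averaged 14.09 ± 1.63 in mutants and 14.41 ± 1.60 in wild types (SD, n = 4 each), a log2 ratio of -0.32 (SE 0.73, adjusted p = 1.00). Fech averaged 13.64 ± 0.66 in mutants and 13.62 ± 0.55 in wild types (SD, n = 4 each), a log2 ratio of 0.02 (SE 0.31, adjusted p = 1.00). Slc4a1 was at 10.31 ± 1.67 in mutants and 9.84 ± 1.01 in wild types (SD, n = 4 each), a log2 ratio of 0.47 (SE 0.87, adjusted p = 1.00).

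The other 4 genes of the set all had ratios below 0 that did not pass. Alas2 averaged 13.78 ± 1.45 in mutants and 14.06 ± 1.28 in wild types (SD, n = 4 each), a log2 ratio of -0.27 (SE 0.67). Hbb-b2 averaged 15.78 ± 1.44 in mutants and 15.97 ± 1.31 in wild types (SD, n = 4 each), a log2 ratio of -0.19 (SE 0.68). For Hba-a1 and Hba-a2, whose saturated spots bound the means, the log2 ratios were -0.30 (SE 0.72) and -0.32 (SE 0.62). These values rested on single arrays: the Hbb-b1 ratio was -1.06 without array 1, 0.50 without array 2, 0.42 without array 3 and -1.14 without array 4. Slc4a1 went to -0.50 without array 1 and to -0.40 without array 4, and Fech to -0.31 without array 1 and to -0.26 without array 4.

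The ratios of the separate arrays were spread widely, with an SD over 4 arrays of 2.53 for Hbb-b1 and 0.972 for Fech on the log2 scale. Hbb-b1 was 6.48-fold higher in the mutant on array 1 (log2 ratio 2.70) and 11.3-fold lower in the mutant on array 2 (-3.50), with -0.26 on array 3 and -0.22 on array 4. Hbb-b2 had ratios of 2.46, -2.36, -0.87 and -0.00 on arrays 1 to 4. Both beta globin probes therefore pointed in opposite directions on the female arrays and showed far smaller ratios on the male arrays. Alas2 had ratios of 1.92, -2.24, -1.15 and 0.38, and Fech 1.26, -1.12, -0.07 and 0.03. Hba-a1 had ratios of 2.50, -2.88, -0.76 and -0.08 and Hba-a2 of 2.00, -2.35, -0.92 and -0.03, where a saturated spot on arrays 1 and 2 for Hba-a1 and on every array for Hba-a2 leaves the true size unmeasured. Slc4a1 differed from the rest on array 4, with ratios of 2.61, -1.46, -1.28 and 2.02, that is 4.06-fold higher in the mutant on array 4.

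All 7 genes had a log2 ratio of at least 1 on array 1 and of at most -1 on array 2, as did 112 of 28548 probes (0.392%), a pattern chosen after the ratios were seen. On both of those arrays the brighter heart carried Cy5, and Alas2 stood at 1.92 and 2.24 as Cy5 over Cy3. On array 3 the Cy5 over Cy3 ratio of the 7 genes lay between -1.28 and -0.07, so the Cy5 heart was the lower there. On array 4 it was -2.02 for Slc4a1, -0.38 for Alas2 and -0.03 for Fech, and between 0.0021 and 0.22 for the 4 globin probes. Across the 28548 probes the median log2 ratio of mutant over wild type was 0.03, 0.01, -0.03 and -0.00 on arrays 1 to 4. The part of the dye in the female ratios was not tested.

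**Figure D2:**
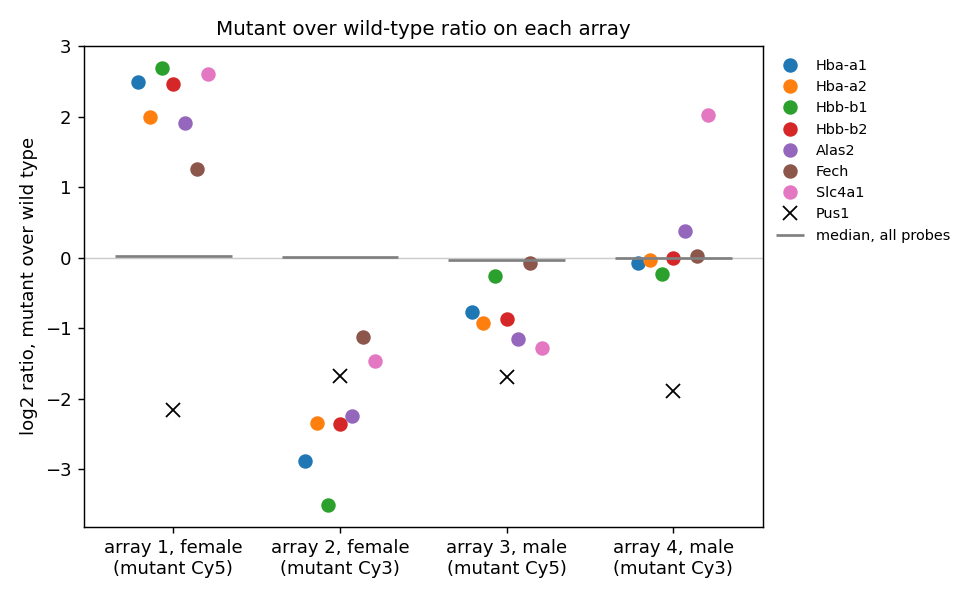
Log2 ratio of mutant over wild type (y axis) on each of the 4 arrays for the 7 measured genes and for Pus1 (crosses), with a grey line at the median of all tested probes. The 7 genes lay at 1.26 or more on array 1 and at -1.12 or less on array 2, whereas Pus1 was below 0 on every array.

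Because mutant 1 and wild type 2 stood apart, correlations between the genes were taken over the other 6 hearts. These were 2 females, mutant 2 and wild type 1, both with Cy3, and the 4 males, so any difference by sex enters each r. Over the 21 pairs of the 7 genes the median Pearson r was 0.15, between -0.49 and 1.00. In the 3 pairs of Alas2, Slc4a1 and Fech r lay between 0.37 and 0.69. In the 6 pairs of globin probes the median was -0.18, and in the 12 pairs of a globin with Alas2, Slc4a1 or Fech it was 0.13. The only pair past the threshold was Hba-a1 with Hba-a2 (r = 1.00, exact permutation p = 0.00139, adjusted over 21 pairs 0.0292, n = 6). There Spearman's rho of 1.00 had an exact permutation p of 0.00278 (adjusted 0.0583), and r was 0.97 without the 2 hearts farthest from the median. Both p-values were the smallest that the 720 orders of 6 hearts allow. A lone pair could thus not pass by rank, and by Pearson r only at that smallest p. The count past the threshold therefore cannot tell whether the other pairs were correlated. In that pair 2 of the 6 Hba-a2 values were saturated, and with saturated spots set missing this pair could not be tested. Mutant 2 and wild type 1 lay below the males by a gap of 1.07 for Hba-a1 and of 1.70 for Hba-a2. They were the 2 hearts left out for the r of 0.97, and the part of sex was not tested. Hbb-b2 and Alas2 followed with r = 0.90 and rho = 0.77 (exact permutation p = 0.0139 and 0.103, adjusted 0.146 and 0.979, n = 6), and r was 0.83 without the 2 farthest hearts.

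The genes whose levels were most like Alas2 and Slc4a1 were sought among 13692 named genes by Pearson r with the mean deviation of that pair over all 8 hearts, mutant 1 and wild type 2 included, and r over the other 6 hearts is given beside it. Those 6 hearts were part of the choice, here and for the globin probes below, so r over 6 hearts is no separate check. Cd24a, a small surface glycoprotein of blood cell precursors and other cells, came first with r = 1.00 (0.99 over 6 hearts). Slc25a37, mitoferrin, which brings iron into the mitochondria of red cell precursors, had r = 0.98 (0.93), and Tent5c, a poly(A) polymerase, had r = 0.98 (0.98). Also among the 10 were Pabpc1, Isg20, Ucp2, Diaph3, Tspo2 and Epb41, at 0.97 or 0.98 over 8 hearts and 0.85 to 0.95 over 6. Cd24a had 11.70, 9.62, 8.48 and 9.94 in mutants 1 to 4, against 9.76, 11.39, 9.48 and 8.95 in wild types 1 to 4. Mutant 1 and wild type 2 were high and mutant 3 low, as for Alas2, a likeness that follows from how Cd24a was chosen.

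The mean of the 4 globin probes joins levels that did not all run alike, with a median r of -0.18 between the probes over 6 hearts. It also holds saturated spots, in 2 hearts for Hba-a1 and in 4 for Hba-a2. The gene most similar to this mean was Hbb-bt (r = 0.98 over 8 hearts and 0.96 over 6), itself saturated in 2 hearts. It was followed by Ctss, the lysosomal protease cathepsin S, with r = 0.97 (0.93), and by Hrob (0.95 and 0.82) and Aldh1a2 (0.93 and 0.78). Also among the 10 were Ncoa4, which delivers ferritin to the lysosome (r = 0.93, 0.68 over 6 hearts), Isca1, an iron-sulfur cluster assembly protein (0.92 and 0.78), and Slc25a39, a mitochondrial carrier (0.91 and 0.60). Ube2o, a ubiquitin-conjugating enzyme of reticulocytes, was the last of the 10 with r = 0.89, and had 0.13 over 6 hearts.

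**Figure D3:**
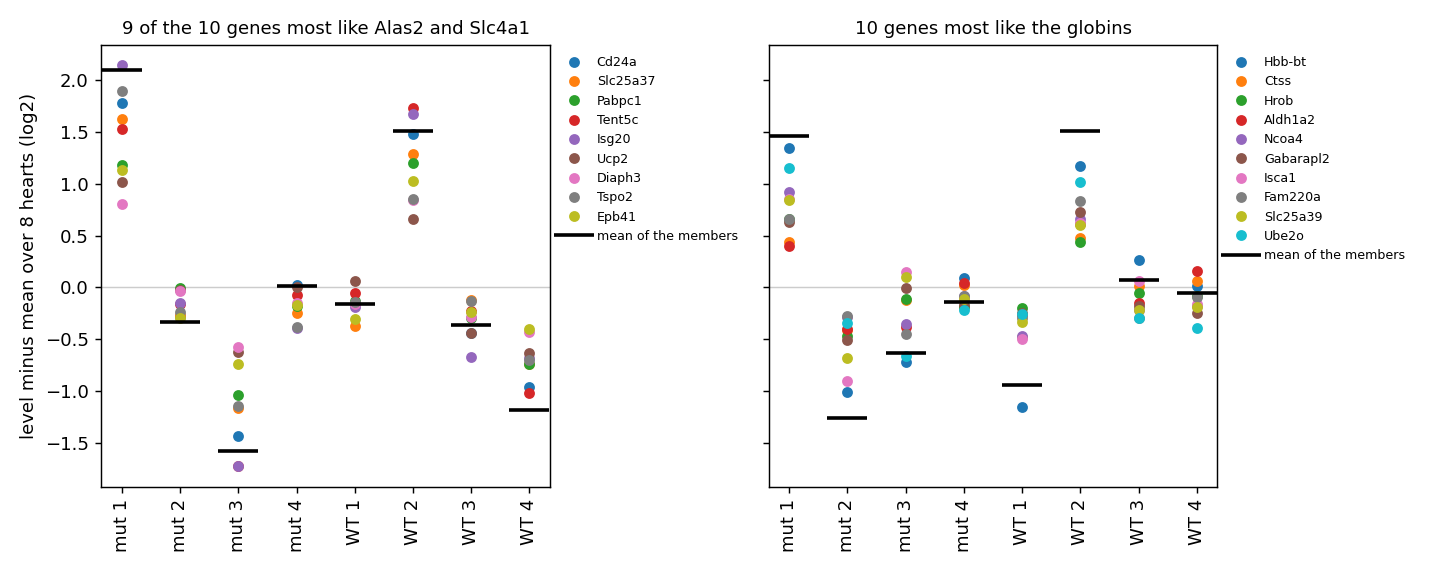
Level minus its mean over the 8 hearts (y axis, log2) of 9 of the 10 genes most like Alas2 and Slc4a1 and of the 10 most like the 4 globin probes, in mutants 1 to 4 and wild types 1 to 4, with black bars at the mean of the genes they were matched to. In both panels the points of mutant 1 and wild type 2 lay above 0, and in the panel of Alas2 and Slc4a1 those of mutant 3 were the lowest for most genes.

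Other genes of the red cell programme followed to unequal degrees. Among late erythroid and reticulocyte genes 18 of 22 were measured, of which 0 passed in either direction and 10 showed the opposite ratios of arrays 1 and 2. Their median log2 ratios were 1.45, -1.06, -0.74 and 0.22 on arrays 1 to 4, and -0.01 in the fit, beside -0.01 for all probes. Isg20, an exonuclease, had 14.51, 12.20, 10.63 and 11.96 in mutants 1 to 4, against 12.17, 14.04, 11.68 and 11.67 in wild types 1 to 4. Car2, a carbonic anhydrase of red cells and other tissues, had 12.55, 9.19, 8.87 and 10.38 in mutants 1 to 4, and 9.38, 11.29, 9.21 and 9.39 in wild types 1 to 4. Both were highest in mutant 1 and wild type 2 and lowest in mutant 3. Among the 10 were also Tent5c, Ube2l6, Trim10, Tspo2, Bpgm, Mkrn1 and Bnip3l.

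Not every gene of that list shared the order. The probe of Hemgn, a nuclear protein of blood precursors, had ratios of 1.37, 0.60, -1.11 and -0.64 on arrays 1 to 4. Cat, catalase, had 0.98, 1.03, -1.54 and -0.40, and Ermap, a surface protein of red cell precursors in the membrane list, had 1.37, 1.07, -2.62 and -0.37. These 3 probes were thus higher in the mutants on both female arrays and lower on both male arrays, and none passed the test of genotype. Some genes of the neutrophil and lymphocyte lists had the same signs, so this order was not particular to red cell genes. Prdx2, an abundant peroxidase of red cells that other tissues also make, had ratios of 0.03, 0.09, 0.02 and 0.10.

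Few other genes of haem synthesis shared the pattern of Alas2 and Fech. All 16 listed genes were measured, 0 passed in either direction, and 3 had the opposite ratios, Alas2, Fech and Slc25a37. The median log2 ratios of the 16 were 0.50, -0.32, 0.09 and -0.01 on arrays 1 to 4, and 0.06 in the fit. Alas1, which makes the same step as Alas2 in other tissues, had 14.44, 13.79, 14.21 and 14.37 in mutants 1 to 4, against 13.90, 13.81, 14.83 and 14.36 in wild types 1 to 4, and its highest heart was wild type 3. Of Alad, Uros, Urod, Cpox and Ppox, enzymes of the steps between Alas1 and Fech, none had a ratio of 1 or more in size on any array. Among red cell membrane and skeleton genes 11 of 16 were measured, 0 passed, and 2, Slc4a1 and Epb41, had the opposite ratios. Epb41, protein 4.1 of the membrane skeleton, had ratios of 1.44, -1.33, -0.50 and 0.23.

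No measured regulator of the lineage had opposite ratios of that size. Of 12 listed, 8 were measured and 0 passed, with medians of 0.09, 0.18, -0.04 and 0.05 on arrays 1 to 4. The opposite ratios were met by 0 of 8, against 0.392% of all probes, so this count cannot set the regulators apart from other probes. Smaller ratios of opposite sign were not counted. Gata1 and Klf1, which drive globin genes in the nuclei of precursors, had probes that were not well above background in at least 4 samples, as had Gfi1b and Sox6. Tal1, another factor of the lineage that endothelial cells also make, had ratios of -0.01, 0.15, 0.04 and 0.08. Of the other globins, Hbq1a had 8.40, 7.54, 7.09 and 6.89 in mutants 1 to 4, against 7.61, 9.13, 7.20 and 6.93 in wild types 1 to 4, and the embryonic Hba-x, Hbb-bh1 and Hbb-y did not pass the filter. Mb, myoglobin, the oxygen store of heart muscle, had ratios of 0.11, -0.16, 0.34 and -0.18.

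Platelet genes were high in another pair of hearts, mutant 2 and wild type 2. Of 14 platelet genes 11 were measured and 0 passed, and their mean deviation from the mean over 8 hearts was -0.39, 0.83, -0.81 and -0.09 in mutants 1 to 4, against -0.16, 0.93, 0.10 and -0.41 in wild types 1 to 4. Wild type 2 was thus high and mutant 3 low for platelet genes as for Alas2, whereas mutant 2 was high and mutant 1 low. Ppbp, a platelet chemokine, had 8.76, 11.14, 7.97 and 9.76 in mutants 1 to 4, against 9.78, 11.21, 10.30 and 9.38 in wild types 1 to 4. The late erythroid list had mean deviations of 1.08, -0.09, -0.84 and -0.11 in mutants 1 to 4, and -0.21, 0.70, -0.17 and -0.37 in wild types 1 to 4. None of the platelet, neutrophil, lymphocyte, cardiac myocyte, endothelium, hypoxia or iron handling genes reached the opposite ratios of arrays 1 and 2. Only 0.392% of all probes did, so this count cannot set these lists apart from other probes. Smaller ratios of opposite sign were not counted. The cardiac myocyte list, for 1, had medians of 0.23 on array 1 and -0.29 on array 2.

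The hearts of both genotypes overlapped in the remaining lists. Neutrophil genes (6 of 14 measured, 0 passed) had mean levels of 10.05 to 10.94 in mutants and 10.05 to 10.76 in wild types, and lymphocyte genes (9 of 12, 0 passed) 8.46 to 9.22 in mutants and 8.85 to 9.31 in wild types. Endothelial genes (10 of 10, 0 passed) had mean levels of 10.86 to 11.14 in mutants and 10.91 to 11.16 in wild types. The mean of 13 measured hypoxia response genes, 0 of which passed, lay between 10.62 and 10.90 in mutants and 10.61 and 10.72 in wild types. Of the 13 measured iron handling genes, 0 of which passed, Tfrc, the transferrin receptor that takes up iron, had ratios of -1.17, 1.11, -1.41 and 1.77 on arrays 1 to 4. The heart with Cy5 was thus the lower for Tfrc on every array, whichever its genotype. With the dye term in the fit the log2 ratio of Tfrc was 0.07 (SE 0.15). Hp, haptoglobin, which binds free haemoglobin, had 7.72, 11.44, 8.03 and 11.05 in mutants 1 to 4, against 8.29, 10.06, 8.04 and 8.60 in wild types 1 to 4. Its highest hearts were mutants 2 and 4 and wild type 2, so it did not share the order of the globin probes. The part of blood content in any of these values was not tested.

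**Figure D4:**
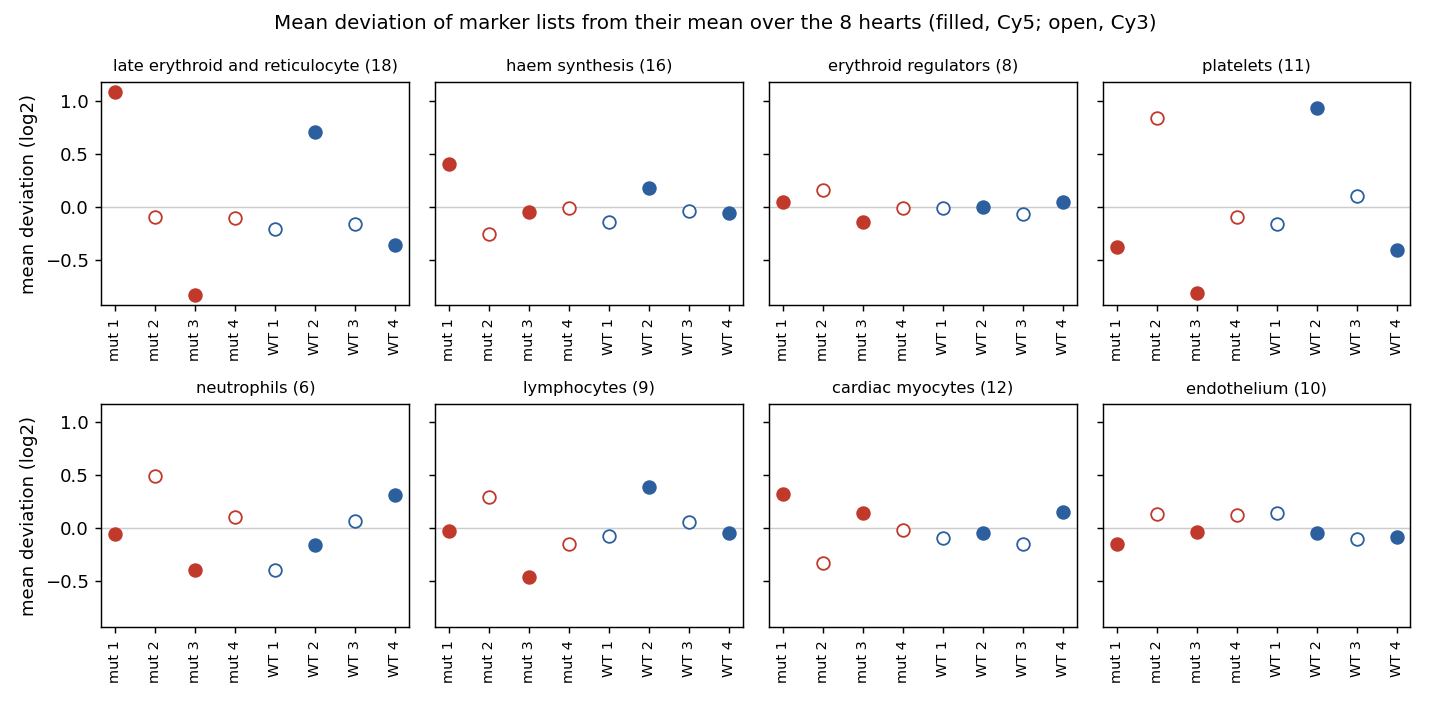
Mean deviation (y axis, log2) of the measured genes of 8 marker lists from their mean over the 8 hearts, in mutants 1 to 4 and wild types 1 to 4, with filled points for Cy5 and open points for Cy3 and the number of genes in brackets. Mutant 1 and wild type 2 were the highest for late erythroid and haem synthesis genes, and mutant 2 and wild type 2 for platelet genes. The haem synthesis list includes Alas2 and Fech themselves, and only 3 of its 16 genes had the opposite ratios of arrays 1 and 2.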

How the data were processed

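RNA of 8 hearts was measured on 4 2-colour arrays, 1 slide and 1 scan. Per the file headers, the authors read the spots with Feature Extraction 10.7.3.1, whose grid names the mouse build mm9. The deposited intensity values used were median spot and local background signals, not normalized. Mean signals had been planned, but the files give spot brightness as medians. The authors' deposited log2 values of the series matrix served as an alternative. Their Cy5 minus Cy3 difference correlated with the processed ratios at 0.991 to 0.998 (slopes 0.988 to 1.04), which settled scale and direction. On arrays 1 to 4 the median value of the matrix was 0.0055, -0.0033, -0.0067 and -0.010 in Cy3 columns, against -0.0017, 0.013, 0.064 and -0.021 in Cy5 columns, and how it was normalized is not given in the sources used here.

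In limma 3.58.1 (R 4.3.3), background was corrected with normexp (offset 50) and ratios were normalized within arrays by loess. Control and non-uniform spots had weight 0 and were then left out. Probes well above background in at least 4 of 8 samples were fitted (lmFit, eBayes) with genotype and dye terms, which left 2 residual degrees of freedom. P-values were 2-sided and adjusted by Benjamini-Hochberg over 28548 probes. Levels came from separate channels after Aquantile. Where a listed gene had several probes the brightest was used. Probes were named through RefSeq accessions of GRCm38.p6 (21865 of 23171 matched). Of the 9 genes, 4 had an entry in the RefSeq promoter table. The array ties a mutant to a wild type by the labels, so ratios were taken within it. The number of arrays limits the precision. The fit was tested on simulated data. The 9 genes and the other lists were chosen with earlier results of these data known. From each list up to 4 genes with the widest range over hearts were to be named, and the 10 genes most like each profile. Bnip3l, Ube2l6, Trim10, Tspo2, Bpgm, Mkrn1, Hemgn, Cat, Prdx2, Alas1 and Tal1 were named after their values were seen, as were the middle steps of haem synthesis. Values of 3 listed genes are not reported here. Alternatives were other signals, scalings, filters, dye and sex terms, separate channels and arrays left out.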

Additional observations from a re-analysis of the deposited data

Results flagged for a closer look

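In 5 of 14 groups of 4 hearts, 1 heart lay far from the other 3, measured as its gap to the nearest heart over the whole range of the group. Chance alone gives such a gap in about 1 group in 20, and the groups share their hearts. Mutant 1 was such a heart for Hbb-b1 (16.53, next 13.35, gap over range 0.948) and for Fech (14.62, next 13.43, 0.837). Wild type 2 was such a heart for Hbb-b1 (16.80, next 13.84, 0.881), Hbb-b2 (17.93, next 15.40, 0.922) and Fech (14.43, next 13.40, 0.888). Both hearts were female and carried Cy5, on different arrays.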

How the results depend on the processing

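No probe passed in the main analysis (283 at an unadjusted p of 0.05). With median centring, with a sex by genotype term and with the channels fitted separately, either without a replicate block or with the array as a random replicate block, 1 probe passed, Pus1 each time. None of the 7 genes passed under any of 19 other settings, where 131 values had a smallest adjusted p of 0.752 (limma). Of these values 114 kept their direction and 17 reversed, 14 of them with 1 array left out. Over the arrays left out in turn, the log2 ratio of Alas2 ran between -1.04 and 0.49, Fech -0.31 and 0.36, Hba-a1 -1.12 and 0.51, Hba-a2 -1.06 and 0.41, Hbb-b1 -1.14 and 0.50, Hbb-b2 -1.03 and 0.64, and Slc4a1 -0.50 and 1.44. The reversals with all arrays or with one sex were Fech at -0.00914 with scale normalization between arrays, Fech at -0.0215 on the male arrays, and Hbb-b2 at 0.0498 on the female arrays, the last 2 chosen after seeing the data. With series matrix values, Hba-a1 was at -0.09 and Hba-a2 at -0.08. Of 21 pairs correlated over 6 hearts, 1 passed in the main analysis, 2 with processed signals and 0 with series matrix values. With saturated spots set missing 0 of 15 pairs passed, and the pair that passed in the main analysis was not among the 15. The cause of the other changes was not tested. Setting saturated spots missing left no value for Hba-a1 and Hba-a2, and correlations with a further heart left out were not tested, since fewer than 6 hearts remained.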
